A study of Sus scrofa with 23 samples.

Results

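RNASE1, TYR, NAA11 and ASZ1 are 4 genes that were at a high level in 8-cell embryos of in vivo fertilized pigs and at or near 0, or far lower, in 8-cell cloned embryos. They are 4 of the 8603 genes of the deposited table and were chosen by name, for their values at the 8-cell stage, so their 8-cell values are a description and carry no test. The table gave 23 libraries, each made from a small pool of oocytes or embryos and each the only library of its condition here. In vivo fertilized Duroc embryos (IV-D, 8 libraries) had 1 Duroc boar as the father of all and were flushed from Duroc sows, and their oocytes matured in 2-year-old Duroc sows. Cloned embryos carried nuclei of ear fibroblasts from that Duroc boar (NT-D, 8 libraries) or from a Laiwu boar (NT-LW, 7 libraries), both 1 year old, and were grown in PZM3 medium at low oxygen. Each clone group thus comes from 1 cell line of 1 male animal, while the sex of IV-D embryos was mixed. Stages were the MII oocyte, 1-cell, 2-cell, 4-cell and 8-cell embryo, morula, and 2 parts of the blastocyst cut by hand, IT (inner cell mass with trophectoderm) and TE (trophectoderm alone). The oocytes that received the nuclei were matured in vitro, came from hybrid sows and are used as the oocyte stage for NT-D and NT-LW alike. Nuclear transfer, breed of the oocyte, culture and sex differ together between clones and IV-D embryos and cannot be told apart.

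In early development the embryo first lives on RNA that the oocyte stored, and then takes over by transcribing its own genome, in pigs mainly around the 4-cell and 8-cell stages. After nuclear transfer the genome of a differentiated cell has to be brought to that state by the oocyte's cytoplasm. TYR encodes tyrosinase, the enzyme that starts melanin synthesis in pigment cells, and ASZ1 encodes a germ cell protein of the mitochondrial surface that takes part in making piRNAs, small RNAs that restrain transposons. NAA11 encodes a catalytic subunit that acetylates the first residue of new proteins and is a close relative of NAA10, known mainly from testis. RNASE1 encodes a secreted pancreatic-type ribonuclease.

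Depth was 14952784 to 22991067 fragments per library, with a median of 18896560, as recovered from the steps between values. Expression is given as FPKM, which counts fragments relative to gene length and library depth, and 95% Poisson intervals on fragments cover counting error only. A gene was called higher or lower between 2 libraries if the difference of log2(FPKM + 1) exceeded 1, provided that 1 of the libraries reached an FPKM of 1. There were no replicates, so no difference was set against a spread between embryos and no p-value was computed. A set of 5 marker transcripts of oocytes (GDF9, BMP15, ZP2, ZP3 and ZP4), of 6 listed, summed to 209.9 to 1651 FPKM up to the 4-cell stage and to 0.522 to 212 later. At the 8-cell stage that sum was 13.6 for IV-D, 167 for NT-D and 212 for NT-LW, and its part in the 8-cell results was not tested. The 5 of 6 trophectoderm markers in the table summed to 1010 to 2659 FPKM in IT and TE. NANOG and KLF4, 2 of 4 markers of the inner cell mass, summed to 13.5 to 33.4 FPKM in IT and 2.11 to 3.84 in TE.

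The RefSeq annotation of Sscrofa11.1 places the 4 genes on different chromosomes, all on the plus strand. RNASE1 (ENSSSCG00000031649) spans chr7:78199007-78214832 and its whole coding sequence lies in 1 exon. TYR (ENSSSCG00000026409) spans chr9:22517047-22604290 with 5 exons. NAA11 (ENSSSCG00000009258) spans chr8:138324566-138333101 with 2 exons and its coding sequence in 1 of them. ASZ1 (ENSSSCG00000016627) spans chr18:28859140-28910927 with 13 exons. The 300 bases before each gene start, at chr7:78198707-78199006, chr9:22516747-22517046, chr8:138324266-138324565 and chr18:28858840-28859139, were read from the RefSeq genome of the same build. They are shown because the genes share a gap in expression while these windows differ in the dinucleotide CG, the site of DNA methylation, set in capitals.
RNASE1: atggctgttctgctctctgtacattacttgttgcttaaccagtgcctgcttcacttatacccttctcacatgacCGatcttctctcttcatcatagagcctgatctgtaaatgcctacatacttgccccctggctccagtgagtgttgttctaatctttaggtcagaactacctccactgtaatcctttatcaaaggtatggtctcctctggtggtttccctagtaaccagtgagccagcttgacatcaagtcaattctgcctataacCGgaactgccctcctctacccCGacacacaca
TYR: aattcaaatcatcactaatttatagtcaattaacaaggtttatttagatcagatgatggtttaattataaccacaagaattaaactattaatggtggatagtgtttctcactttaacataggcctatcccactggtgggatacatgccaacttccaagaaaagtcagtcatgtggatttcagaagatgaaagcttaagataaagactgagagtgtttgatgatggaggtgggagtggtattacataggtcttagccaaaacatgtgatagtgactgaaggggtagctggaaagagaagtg
NAA11: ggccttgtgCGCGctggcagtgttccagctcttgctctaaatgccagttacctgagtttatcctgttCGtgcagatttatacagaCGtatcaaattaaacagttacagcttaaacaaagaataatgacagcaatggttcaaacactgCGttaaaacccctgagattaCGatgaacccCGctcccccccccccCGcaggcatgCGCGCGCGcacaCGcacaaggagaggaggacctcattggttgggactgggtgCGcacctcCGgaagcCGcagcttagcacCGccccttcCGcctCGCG
ASZ1: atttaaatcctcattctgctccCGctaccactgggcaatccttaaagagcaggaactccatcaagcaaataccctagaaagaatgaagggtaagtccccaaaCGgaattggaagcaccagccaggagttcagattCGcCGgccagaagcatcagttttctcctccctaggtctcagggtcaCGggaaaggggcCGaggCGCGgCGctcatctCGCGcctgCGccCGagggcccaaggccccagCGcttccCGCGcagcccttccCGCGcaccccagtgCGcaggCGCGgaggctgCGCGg

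In these windows RNASE1 had 3 CG sites, TYR 0, NAA11 20 and ASZ1 23, against a median of 13 over 19556 such windows of protein-coding genes. The ratio of observed to expected CG was 0.202 for RNASE1, 0.896 for NAA11 and 0.823 for ASZ1, with a median of 0.60 over all windows. The genes thus fell on both sides of the common value, and 64.6% of windows had fewer CG sites than that of NAA11, 71.0% fewer than that of ASZ1. The other starts of RNASE1 in RefSeq had 3 or 4 CG sites in their windows. No methylation data were analysed here.

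A set of 7 short motifs was searched on both strands of the windows. CATGTG, the core of the sequence bound by the pigment cell factor MITF, was found 2 times before TYR and 1 time before RNASE1, and in 10.4% of all windows. TATAAA, the motif of the TATA box, was found before TYR and NAA11, before 1 of the other starts of RNASE1, and in 11.9% of windows. The matches before TYR and NAA11 lie on the minus strand, opposite to the genes, and far from the gene start. They were therefore not read as TATA boxes of these genes. CCAAT was found before NAA11 and ASZ1 (35.8% of windows), GGGCGG before NAA11 (47.6%) and TAATCC, a homeobox motif, before RNASE1 (6.56%). CACGTG (7.30% of windows) and TGACTCA (3.42%) had no match before the 4 genes. For RNASE1, the matches of the MITF core and of the homeobox motif lie before the gene start only. The other starts of RNASE1 had 0 matches of either motif. Which start of RNASE1 the embryos used was not tested. No motif was found before all of the genes.

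**Figure D1:**
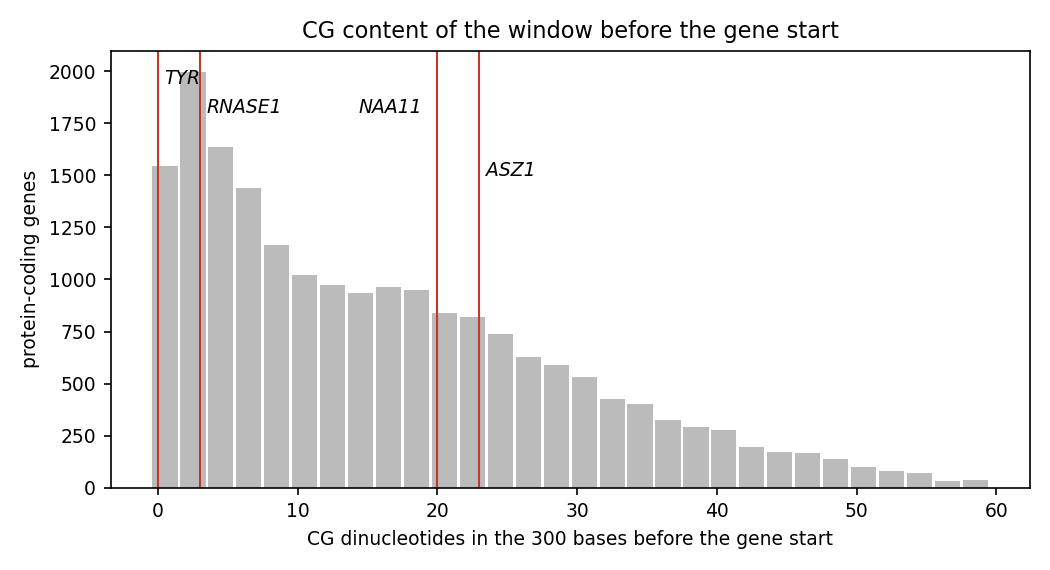
Number of protein-coding genes (y axis) by the number of CG dinucleotides in the 300 bases before the gene start (x axis, bars of 2 counts each, up to 59), with red lines for the 4 genes. TYR (0) and RNASE1 (3) lie at the low end, NAA11 (20) and ASZ1 (23) above the median of 13.

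The genes differed in how they reached the 8-cell stage in IV-D embryos. RNASE1 had 0 fragments in the oocyte and in 1-cell, 2-cell and 4-cell embryos, then 206 FPKM at the 8-cell stage (2530 fragments, interval 198 to 214). That was at least 651-fold higher than the 4-cell level, taking 3 fragments as the limit of a count of 0. It went on to 362 FPKM in the morula, fell to 41.2 in IT and had 0 fragments in TE. RNASE1 was thus detected in IV-D embryos from the 8-cell stage to IT and in neither the earlier libraries nor TE.

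TYR was already present in the IV-D oocyte, at 5.95 FPKM, and went up at each step, to 14.5 at the 1-cell stage, then 19.4, 25.3 and 52.9 at the 2-cell, 4-cell and 8-cell stages. The 8-cell level was 2.10-fold the 4-cell level (interval 1.93 to 2.28), a log2 difference of 1.04 that fell below 1 under both alternative scalings, to 0.95 and 0.65. The step between 2-cell and 4-cell embryos, 0.36 on the log2 scale, turned to -0.43 after median-ratio scaling. Later it was at 22.9 in the morula, 22.3 in IT and 34.8 in TE, so that TE was the second highest library for TYR. The counting intervals of the morula and IT overlapped.

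NAA11 had 23, 9 and 6 fragments in IV-D oocytes, 1-cell and 2-cell embryos, which is 1.56, 0.782 and 0.377 FPKM. Its rise came one step earlier than that of RNASE1, to 23.1 FPKM in 4-cell embryos, 61.4-fold the 2-cell level (interval 27.8 to 169), a step at which 34.4% of genes were higher. It stood at 41.5 in 8-cell embryos, 37.4 in the morula and 36.4 in IT, and at 9.17 in TE. The levels from the 8-cell stage to IT overlapped in their counting intervals, and TE lay below them.

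ASZ1 went down slowly in IV-D embryos, from 9.55 FPKM in the oocyte to 6.37, 5.85 and 4.24 in 1-cell, 2-cell and 4-cell embryos. After median-ratio scaling the step between 1-cell and 2-cell embryos turned from -0.11 to 0.40 on the log2 scale, and the next went from -0.39 to -1.11, past the limit. ASZ1 then rose 5.64-fold (interval 4.55 to 7.06) to 23.9 at the 8-cell stage, and was at 33.8 in the morula, 56.2 in IT and 29.4 in TE. IT had the highest ASZ1 value of the 23 libraries. Between the 4-cell and 8-cell stages of IV-D embryos, RNASE1, TYR and ASZ1 were called higher, beside 35% of 7995 genes.

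At the 8-cell stage the clones were far below these levels, which is the contrast the genes were chosen on. RNASE1 was at 206 FPKM in IV-D embryos, and the NT-D and NT-LW values were 1.73 (20 fragments) and 8.48 (83 fragments). TYR was at 52.9, 0 and 0.157 in the same order, with 2116, 0 and 5 fragments. NAA11 was at 41.5, 0 and 0.353, with 591, 0 and 4 fragments. ASZ1 was at 23.9, 0 and 0.171, with 702, 0 and 4 fragments. TYR, NAA11 and ASZ1 were therefore not detected in NT-D embryos and barely detected in NT-LW embryos, while RNASE1 had a small signal in both. From the 4-cell stage RNASE1 was up 13.9-fold in NT-LW (interval 6.44 to 35.6) and 2.23-fold in NT-D (0.904 to 6.23), from 7 fragments in each.

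Set against a limit of 3 fragments, the NT-D levels were at least 662-fold lower for TYR, at least 185-fold lower for NAA11 and at least 220-fold lower for ASZ1. RNASE1 was lower by 119-fold in the NT-D library (interval 76.7 to 195) and by 24.3-fold in the NT-LW library (19.5 to 30.6). In NT-LW embryos TYR was 337-fold lower (144 to 1039), NAA11 118-fold (45.7 to 433) and ASZ1 140-fold (54.3 to 514). All 4 genes were called lower in both clone groups, where 13.5% of 7374 genes were. The clone comparisons share that IV-D library. Ordered by the larger of both log2 differences, TYR ranked 3, NAA11 6, RNASE1 10 and ASZ1 12 from the lowest of those 7374 genes. In a pool of whole embryos, fewer cells with a transcript and less of it per cell cannot be told apart.

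**Figure D2:**
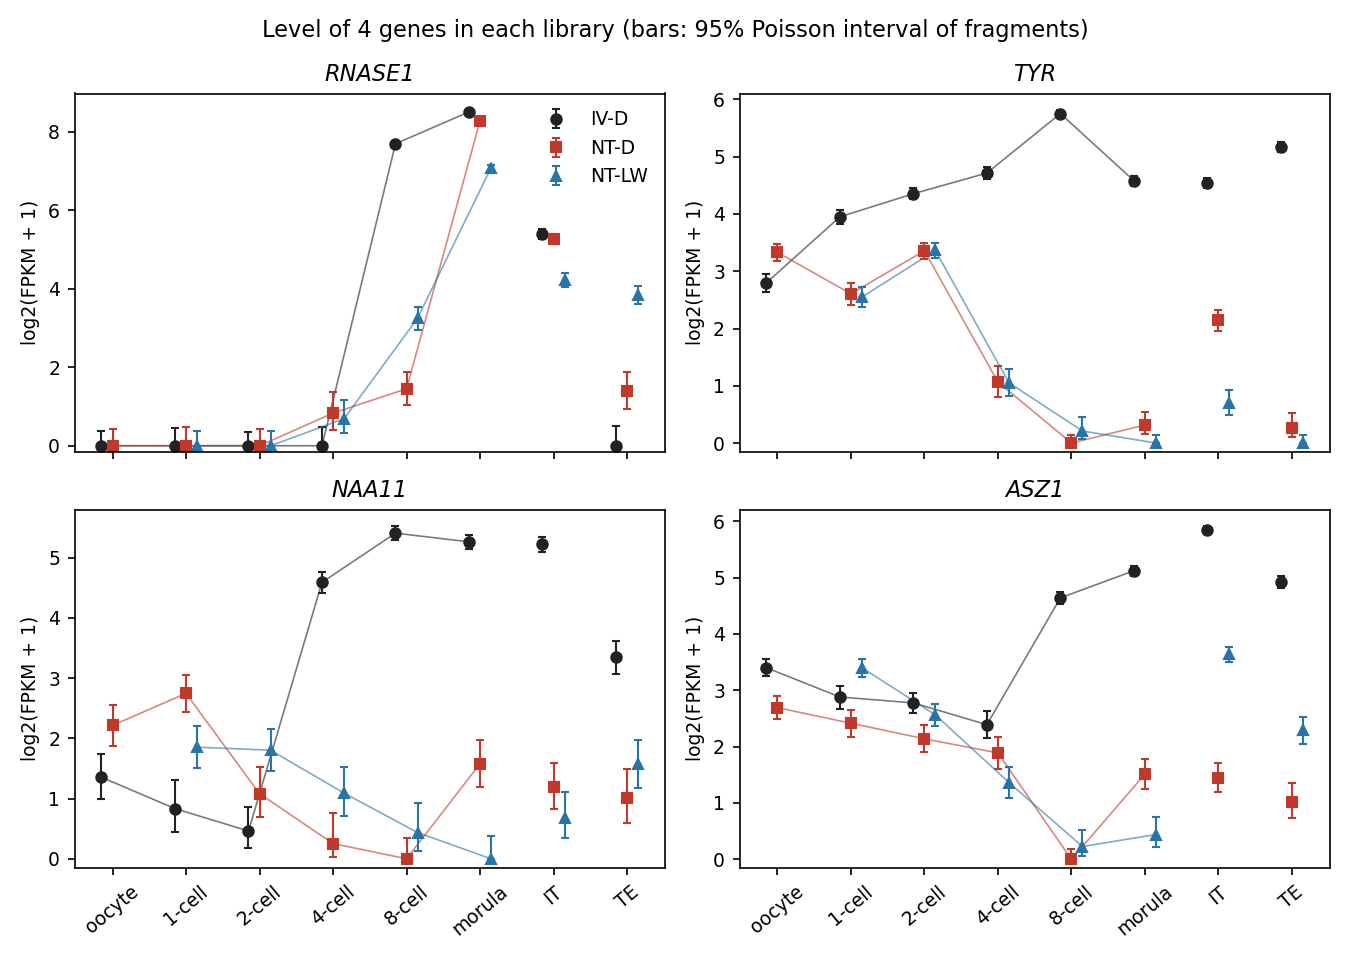
log2(FPKM + 1) of each gene (y axis) in the 23 libraries by stage (x axis), with IV-D in black circles, NT-D in red squares and NT-LW in blue triangles, 1 library per point, and bars for the 95% Poisson interval of the fragments. RNASE1 in clones reached 134 to 308 FPKM in the morula, while TYR, NAA11 and ASZ1 in clones were at or under 1.99 FPKM there.

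**Figure D3:**
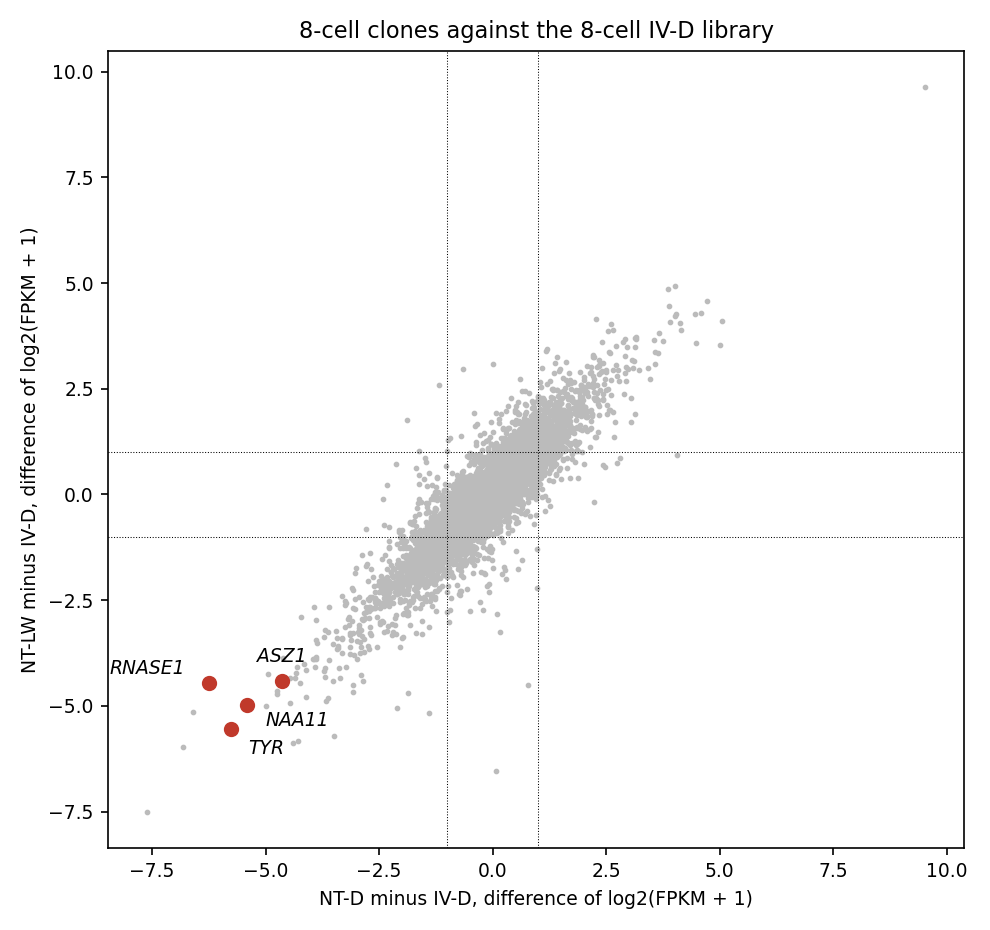
Difference of log2(FPKM + 1) from the 8-cell IV-D library in NT-D (x axis) and NT-LW (y axis) 8-cell embryos, for the 7374 genes in which, for each clone group, the clone or the IV-D library reached an FPKM of 1 (grey), dotted lines at -1 and 1. The 4 genes (red) lie in the lower left corner, from -4.64 to -6.24 in NT-D and from -4.41 to -5.54 in NT-LW.

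The clones differed less from IV-D embryos before the 8-cell stage, and each gene in its own way. TYR was already lower in 1-cell clones, at 5.09 FPKM in NT-D and 4.85 in NT-LW against 14.5 in IV-D, where 1.78% of genes were lower in both. The recipient oocytes had 9.06 FPKM, more than the 5.95 of IV-D oocytes, so the order of the groups turned between the oocyte and the 1-cell stage. At the 2-cell stage TYR was at 9.25 and 9.28 in the clones against 19.4, log2 differences of -0.996 and -0.992 that passed the limit under a pseudocount of 0.1 and median-ratio scaling. At the 4-cell stage the clones had 1.09 and 1.07 FPKM (32 and 40 fragments) against 25.3.

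TYR transcripts of the clones thus dropped after the 2-cell stage, from 9.25 to 1.09 FPKM in NT-D and from 9.28 to 1.07 in NT-LW, and were near the limit of detection at the 8-cell stage. From the 1-cell stage on, all 7 IV-D libraries had more TYR than any of the 15 clone and recipient oocyte libraries. The clone library with the most TYR after the 2-cell stage was NT-D IT, at 3.42 FPKM (141 fragments). In NT-LW blastocysts TYR had 26 fragments in IT and 0 in TE.

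NAA11 started higher in the clones. The recipient oocytes had 3.65 FPKM (46 fragments) against 1.56 in IV-D oocytes, and 1-cell clones 5.72 in NT-D and 2.61 in NT-LW against 0.782. NAA11 was called higher in 1-cell clones of both groups, where 18.5% of genes were higher in NT-D and 20.8% in NT-LW. For NT-LW the call was lost under median-ratio scaling, at 0.76. At the 4-cell stage the order was reversed, with 2 fragments in NT-D and 15 in NT-LW (0.192 and 1.13 FPKM) against 254 in IV-D embryos. The 4-cell clones thus lacked the rise of NAA11 that IV-D embryos showed a step before the 8-cell stage.

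ASZ1 was close to IV-D levels in early clones, at 5.46 FPKM in recipient oocytes, 4.34 and 9.56 in 1-cell and 3.40 and 4.91 in 2-cell embryos of NT-D and NT-LW. After median-ratio scaling the 2-cell differences of ASZ1 were -1.03 and -1.04 and passed the limit. At the 4-cell stage NT-D had 2.70 and NT-LW 1.57 against 4.24 FPKM in IV-D embryos. The NT-LW level was 37.1% of that of IV-D (interval 25.3 to 53.7), a log2 difference of -1.03 that passed the limit, and the NT-D difference of -0.50 did not. The clones then went to 0 and 4 fragments at the 8-cell stage, whereas IV-D embryos had 702. TYR and NAA11 were lower in both clone groups at the 4-cell stage, where 7.25% of genes were. RNASE1 had 7 fragments in each 4-cell clone library and 0 in the IV-D library, and was under 1 FPKM in all of them.

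After the 8-cell stage RNASE1 parted from the others. In NT-D it went from 1.73 FPKM to 308 in the morula, 85.2% of the IV-D level (interval 81.5 to 89.0), and in NT-LW from 8.48 to 134, or 37.1% (34.9 to 39.4). In IT it was at 37.7 in NT-D and 17.6 in NT-LW against 41.2 in IV-D, and the NT-D interval of 80.5% to 104% of the IV-D level included no change. RNASE1 was called lower in NT-LW at both stages, beside 4.07% of genes in the morula and 13.7% in IT, and in NT-D at neither. In TE it was detected only in the clones, with 15 fragments in NT-D, 141 in NT-LW and 0 in IV-D. These are at least 4.79-fold and at least 39.8-fold higher than a limit of 3 IV-D fragments, and 3.13% and 6.26% of genes were called higher in TE.

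TYR, NAA11 and ASZ1 stayed low. TYR was at 0.245 FPKM in NT-D and 0 in NT-LW morulae against 22.9 in IV-D, at 3.42 and 0.621 in IT against 22.3, and at 0.198 and 0 in TE against 34.8. NT-D IT had 15.3% of the IV-D level (interval 12.7 to 18.3), the nearest that a clone library came from the 4-cell stage on.

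NAA11 was at 1.99 FPKM in NT-D and 0 in NT-LW morulae against 37.4, at 1.29 and 0.604 in IT against 36.4, and at 1.02 and 1.96 in TE against 9.17. The gap was smallest in TE, 9.01-fold in NT-D and 4.67-fold in NT-LW, where the IV-D level itself was lowest. ASZ1 was at 1.85 and 0.357 in morulae against 33.8, at 1.72 and 11.4 in IT against 56.2, and at 1.03 and 3.89 in TE against 29.4. The NT-LW blastocyst regained part of ASZ1, 20.3% of the IV-D level in IT (interval 18.1 to 22.8) and 13.2% in TE (10.6 to 16.4), and the NT-D blastocyst 3.06% and 3.52%.

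TYR, NAA11 and ASZ1 were lower in both clone groups in the morula, where 1.56% of genes were, in IT (10.6%) and in TE (2.7%). Of the 999 genes lower in both groups at the 8-cell stage, 6.71% were again lower in both in the morula, 24% in IT, 4.4% in TE and 1.1% at all of these stages. Those last are 11 genes, among them TYR, NAA11 and ASZ1, which were also among the 8 to 19 genes found under each of 7 other settings. The remaining named ones are TRIML2, HORMAD1, C18orf63, PITPNC1, PRR19, NOX3 and CFAP61, and they were named after their values were seen. By the fold rule a gene under 1 FPKM in the IV-D library of a stage cannot be called lower there. The shares of the 999 genes thus also depend on which of them IV-D embryos still expressed. HORMAD1, a protein of the meiotic chromosome axis, went from 81.9 FPKM in IV-D to 4.46 in NT-D and 4.59 in NT-LW 8-cell embryos.

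The clone groups themselves differed in these genes. At the 8-cell stage RNASE1 was 4.89-fold lower in NT-D than in NT-LW (interval 2.98 to 8.42), where 3.99% of genes were lower. In the morula it was 2.30-fold higher in NT-D (2.16 to 2.44), NAA11 at least 8.09-fold higher and ASZ1 5.18-fold higher (2.52 to 11.99), beside 14.1% of genes. In IT, TYR was 5.503-fold higher in NT-D (3.60 to 8.72) and RNASE1 2.15-fold (1.83 to 2.53), against 2.7% of genes, and ASZ1 6.65-fold lower (4.96 to 9.08), against 2.54%. In TE, RNASE1 was 8.30-fold lower in NT-D (4.87 to 15.2) and ASZ1 3.76-fold (2.37 to 6.21), against 4.6%, so that RNASE1 was lower in NT-D at the 8-cell stage and in TE and higher in between. The summed oocyte transcripts in morulae were 166 FPKM in NT-D, 27.2 in NT-LW and 6.14 in IV-D, and their part in these differences was not tested.

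The 3 fibroblast collagens of the table summed to at most 0.631 FPKM in IV-D, 2.43 in NT-D and 2.58 in NT-LW libraries from the 8-cell stage on, and all 3 were at 0 in IV-D IT and TE. In earlier embryos of IV-D, NT-D and NT-LW these collagens summed to 18.1, 22.6 and 12.2 FPKM at the 1-cell stage. They summed to 1.90, 13.8 and 16.3 at the 2-cell stage and to 3.30, 20.9 and 21.5 at the 4-cell stage. Their part in the results was not tested. Single markers of cumulus cells (HAS2) and of oviduct and uterine epithelium (PGR) were at most 0.921 and 2.93 FPKM from the 8-cell stage on. There PECAM1 with HBB summed to at most 23.1, in NT-LW IT. In 4-cell embryos of IV-D, NT-D and NT-LW, HAS2 was at 2.38, 5.21 and 18.8 FPKM and PGR at 3.57, 1.90 and 2.27. Of 6 melanocyte markers the table held DCT and MITF. DCT, which acts after tyrosinase in melanin synthesis, was at 8.31 FPKM in the IV-D oocyte, 17.0 after fertilization (1-cell), 8.29 and 4.54 at the next stages (2-cell and 4-cell), then 0.418 when TYR was at its highest in 8-cell embryos, and 0 in TE, where TYR had 34.8. MITF, a regulator of pigment cell genes, was at 5.00 FPKM in IV-D, 2.60 in NT-D and 4.26 in NT-LW 8-cell embryos. In IV-D embryos DCT thus went up with TYR to the 1-cell stage and was lower at each later stage, and MITF was present in 8-cell clones that had at most 5 fragments of TYR.

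Of 15 other genes of melanin synthesis, melanosomes and their transport in the table, 14 could be compared at the 8-cell stage in each clone group. RAB38 (4.73 FPKM in IV-D, 1.23 and 1.29 in clones) and the copper transporter ATP7A (7.55, 2.90 and 2.73) were lower in both, a share near the 13.5% of all genes. RAB27A (3.64, 21.4 and 10.8) and BLOC1S5 (4.87, 14.4 and 18.8) were higher in both, as were 8.95% of all genes. The list had a median log2 difference of -0.31 in NT-D and 0.02 in NT-LW, where all genes had -0.12 and -0.02.

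ASZ1 was followed with the piRNA pathway, of which the table held 21 other genes. At the 8-cell stage 10 of 20 were lower and 0 higher in NT-D, and 8 of 19 were lower and 1 higher in NT-LW. Of all genes 17.4% were lower and 10.8% higher in NT-D, 17.3% and 16.3% in NT-LW. Lower in both were 7 genes, beside 13.5% of all genes, led by PLD6, DDX4, PIWIL2 and TDRD9. PLD6, a mitochondrial surface enzyme of piRNA making, was at 74.0, 2.57 and 0.275 FPKM in IV-D, NT-D and NT-LW. DDX4, a germ cell RNA helicase, was at 42.5, 4.82 and 1.24, and PIWIL2, a protein that carries piRNAs, at 13.5, 1.42 and 1.55. The list had medians of -0.95 for NT-D and -0.79 for NT-LW.

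The piRNA genes differed from ASZ1 after that stage. In the morula 0 of them were lower in both clone groups (1.56% of all genes), in IT 2 (HENMT1 and WDR77; 10.6%) and in TE 0 (2.7%), while PLD6 was higher in TE of both. In NT-D morulae 7 of 20 were higher and 1 lower, and in NT-LW morulae 0 of 15 were higher and 1 lower, where 18.7% and 11.6% of all genes were higher. DDX4 and PIWIL2 came down in IV-D embryos, to 3.99 and 1.97 FPKM in the morula and 0.256 and 0.158 in TE, whereas ASZ1 went up. MAEL and TDRD1, further piRNA proteins, were highest before the 4-cell stage, at 166 and 48.2 FPKM in IV-D oocytes and 2.34 and 3.70 in 8-cell embryos. ASZ1 was thus the gene of the list that was called lower in both clone groups at all 4 of these stages. Of the other genes 13 could be compared in IT and 11 in TE for NT-D, and 12 and 14 for NT-LW. PLD6, DDX4, PIWIL2, TDRD9, TDRKH and EXD1, lower in both at the 8-cell stage, were under 1 FPKM in IV-D TE. They could therefore not be called lower there, whatever the clones had.

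Among 16 genes with germline functions, HORMAD1, RPL10L, SYCP3, ADAD1 and BRDT were lower in both clone groups at the 8-cell stage and DPPA5 and MEIOB higher, against 13.5% and 8.95% of all genes. RPL10L, a testis form of a ribosomal protein, was at 39.5, 0.321 and 1.14 FPKM in IV-D, NT-D and NT-LW. SYCP3, a meiotic chromosome protein, was at 92.0, 10.9 and 8.77. DPPA5, an RNA-binding protein of early embryos and germ cells, was at 29.9, 96.2 and 190. In the morula 4 of the list were lower in both, HORMAD1, RPL10L, SYCP3 and ADAD1, against 1.56% of all genes. The list had a median of -0.29 in NT-D and -0.15 in NT-LW at the 8-cell stage, with members on both sides of 0.

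**Figure D4:**
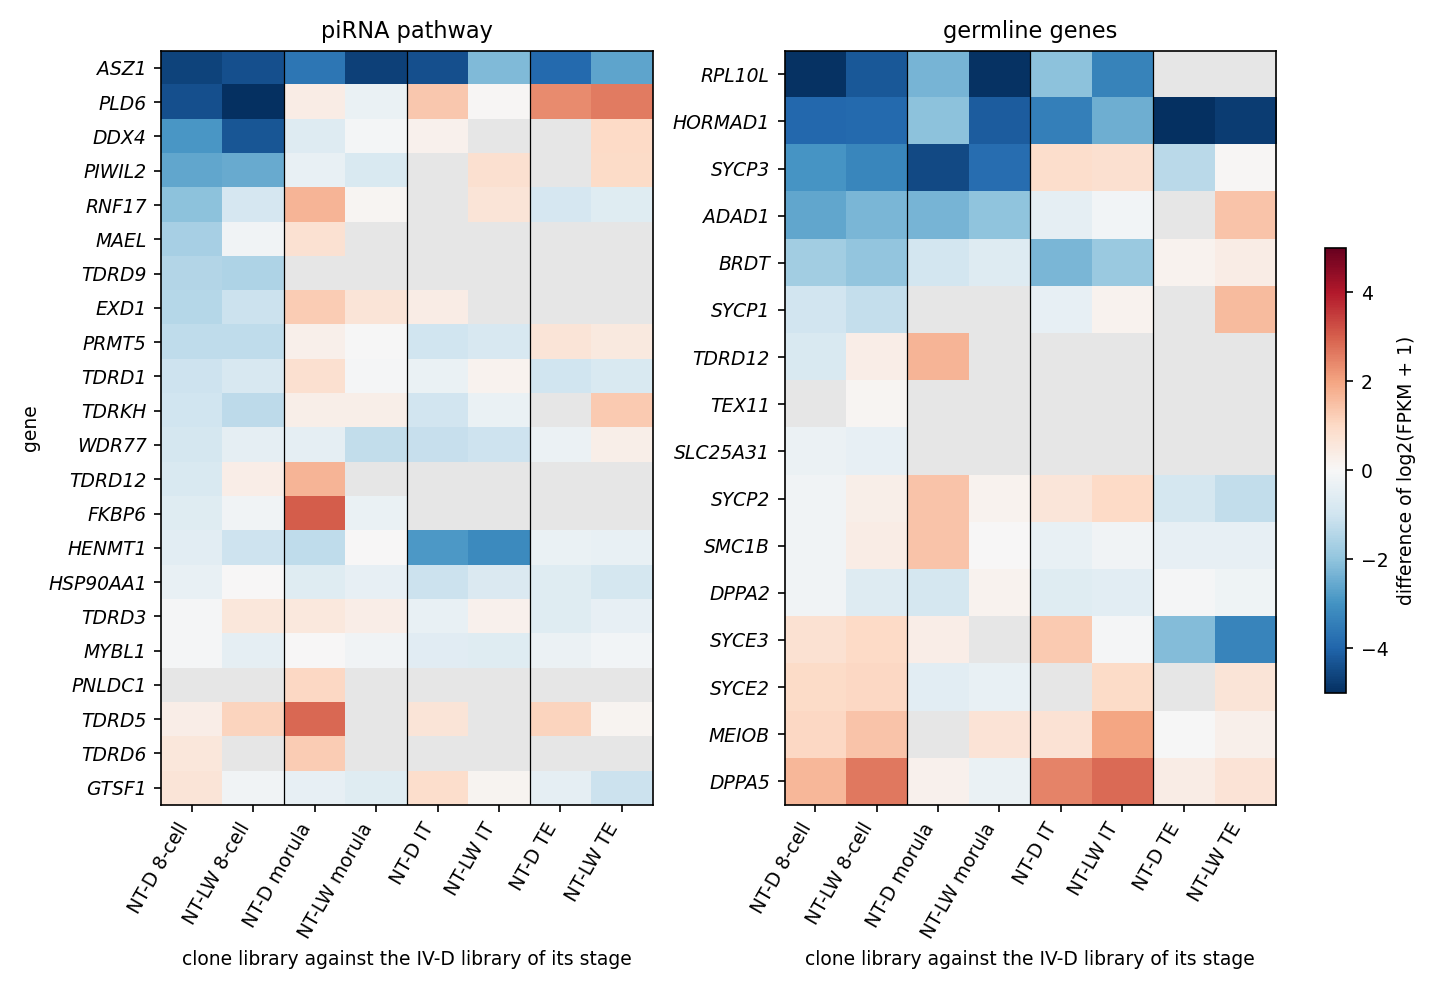
Difference of log2(FPKM + 1) between each clone library and the IV-D library of its stage (colour, blue lower and red higher, from -5 to 5) for genes (rows) of the piRNA pathway, with ASZ1, and of the germline list. Grey cells had FPKM under 1 in both libraries. ASZ1 and HORMAD1 are blue in all 8 columns, while PLD6 turns from blue at the 8-cell stage to red in TE.

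NAA10, the relative of NAA11 and the usual catalytic subunit, rose in IV-D embryos from 4.31 FPKM at the 4-cell stage to 49.8 at the 8-cell stage and 77.3 in the morula. In 8-cell clones it was at 18.7 (NT-D) and 11.5 (NT-LW) and was called lower in both, but reached 54.7 and 46.1 in the morula. NAA15, the partner that anchors it to the ribosome, was at 34.8 in IV-D, 26.5 in NT-D and 23.2 in NT-LW 8-cell embryos. Of 9 other N-terminal acetyltransferase genes in the table, all could be compared, NAA10 alone was lower in both and 0 were higher, near the 13.5% and 8.95% of all genes. NAA11 and NAA10 share 80.4% of 693 aligned coding bases, with 32 bases as the longest identical stretch, which is shorter than a read. In NT-D 8-cell embryos NAA10 had 570 fragments and NAA11 0.

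RNASE4, which lies 29.5 kb after RNASE1 and belongs to the same family, was at 154 FPKM in IV-D 4-cell embryos, 22.0 in NT-D and 5.94 in NT-LW. At the 8-cell stage it was at 57.2, 7.95 and 5.06 and was lower in both clone groups, as were the ribonucleases XRN2 (51.5, 14.6 and 15.3) and DIS3L (7.01, 1.67 and 0.832). Of 10 other ribonucleases in the table, 9 could be compared, 3 were lower in both and 0 higher, where all genes had 13.5% and 8.95%. In the morula RNASE4 was at 45.9 in IV-D, 47.0 in NT-D and 49.6 in NT-LW, at a like level in all groups, and in TE it was at 17.0, 59.8 and 101. The genes RNH1, ANG and TYRP1 were not analysed here.

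The 23 nearest genes of the table, up to 3 on each side, were taken as neighbours of the 4 genes, and genes that the table lacks were passed over. At the 8-cell stage 4 were lower in both clone groups and 3 higher, beside 13.5% and 8.95% of all genes that could be compared. Among the 23, SLC39A2, RNASE12, GRM5, CFTR and CAV1 were under 1 FPKM in all 8-cell libraries and could not be called. Beside RNASE1, RNASE4 and PNP were lower and RPGRIP1 higher. Beside TYR, RAB38 at 876 kb and FOLH1B at 300 kb were lower, while NOX4, at 17.8 kb, was at 2.44 FPKM in IV-D, 2.07 in NT-D and 0.806 in NT-LW. Beside NAA11, RASGEF1B at 1730 kb and PAQR3 at 314 kb were higher. The other neighbours before NAA11 were HNRNPD at 2462 kb and HNRNPDL at 2515 kb, so the near surroundings of NAA11 on that side were not covered. Beside ASZ1, CFTR was at 0.392, 0.370 and 0.526 FPKM at 40.9 kb, and 0 neighbours were called in both groups. Of the neighbours of NAA11 and ASZ1, 0 were lower in both clone groups. Among them RASGEF1B, PAQR3, CTTNBP2, CFTR and CAV1 were under 1 FPKM in the IV-D 8-cell library. The fold rule cannot call such a gene lower, so no conclusion was drawn from this 0.

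**Figure D5:**
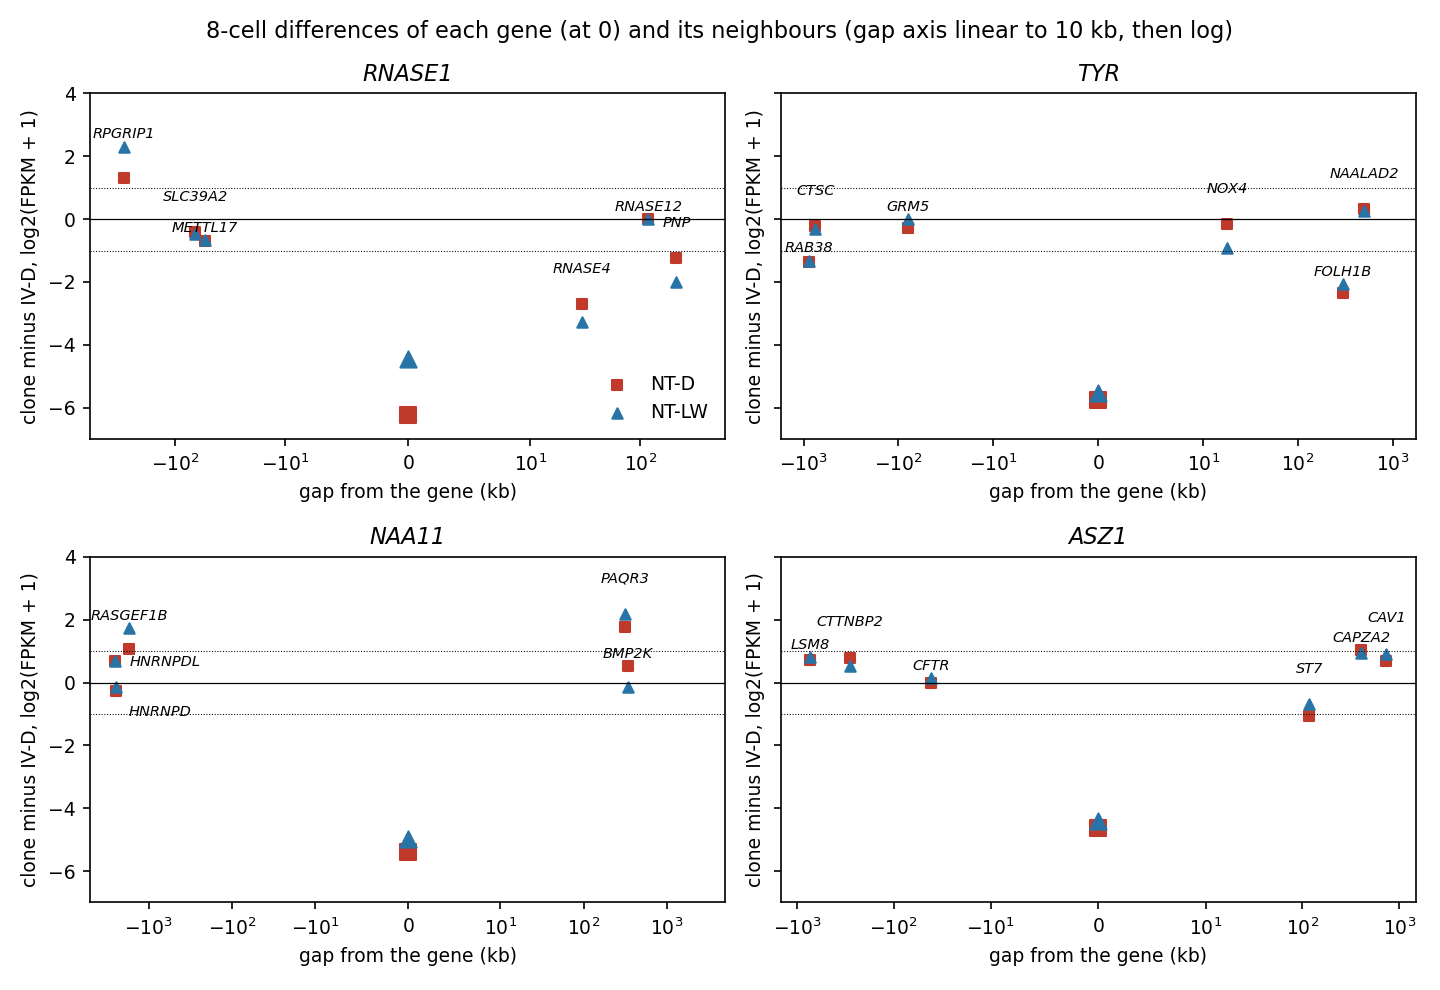
Difference of log2(FPKM + 1) from the IV-D library at the 8-cell stage (y axis, NT-D red squares, NT-LW blue triangles) for each gene, at 0, and the nearest genes of the table by the gap in kb (x axis, linear to 10 kb and logarithmic beyond). The 4 genes lie between -4.41 and -6.24, and the neighbours between -3.26 and 2.31.

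Across the 23 libraries the 4 genes did not share 1 pattern. Pearson's r of log2(FPKM + 1) was 0.77 for TYR with ASZ1, 0.76 for NAA11 with ASZ1 and 0.73 for NAA11 with TYR, and RNASE1 had r of -0.12 with TYR, 0.31 with NAA11 and 0.14 with ASZ1. These are descriptions, since libraries of 1 group and successive stages are not independent and the genes were chosen for a shared 8-cell difference. Of 5645 named genes that reached 10 FPKM in a library, those most like RNASE1 were ETNPPL (r 0.96), FAM151A (0.94) and WDR4 (0.94). ETNPPL was at 128 FPKM in IV-D and 20.1 and 27.8 in clone 8-cell embryos, and at 454, 347 and 383 in morulae. Most like TYR were C18orf63 (0.82), HORMAD1 (0.79) and ASZ1, most like NAA11 were REPS2 (0.81), PPP1R15A (0.78) and ASZ1, and most like ASZ1 were TYR, PRR19 (0.76) and NAA11. HORMAD1 was at 51.0 FPKM in IV-D TE and at 0.558 and 0.955 in TE of clones. C18orf63 was at 28.3 FPKM in IV-D and 1.26 and 0.715 in clone 8-cell embryos.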

How the data were processed

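RNA of pooled oocytes and embryos was measured in 23 libraries, 1 per condition. cDNA had been made with the SMART-Seq v4 kit and sequenced in pairs. Per the labels, HISAT2 2.0.4, HTSeq 0.9.1 and the build Sscrofa11.1 were used, with Ensembl gene models. The deposited values are FPKM, scaled by the authors to gene length and library depth. Whether strand was used is not given in the sources used here, so antisense reads cannot be told apart. The table holds 8603 genes, by its deposited name those called changed, so shares of genes called are shares of a table already chosen for change. Donor cells and added replicates were not analysed here.

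From the FPKM values, whole fragments were recovered for 8602 of 8603 genes (gene length within 0.01 of a whole number), checked on simulated data. Intervals are exact Poisson intervals for a value and exact binomial intervals for a ratio, both at 95%, and a count of 0 was taken as up to 3 fragments. Amplified reads carry no molecular identifiers, so these cover counting error only. The fold rule used a pseudocount of 1, which understates changes of low genes. No further scaling was applied, and the median gene differed by -0.12 and -0.02 between NT-D or NT-LW and IV-D 8-cell embryos.

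The 4 genes, the gene lists and the rules were chosen with earlier results of these data known, and lists were written from general knowledge. Named are the 4 genes, the 3 genes most like each, list genes past the fold rule in both clone groups at the 8-cell stage (at most 4 a list by the smaller difference), fixed partners and relatives, and up to 3 neighbours a side. Other names were chosen after their values were seen. The settings varied were the pseudocount (0.1), the minimum FPKM (5 or none), and the scale, by rescaling to a sum of 1000000 and by median-ratio scaling. Software was scipy 1.17.1, biopython 1.88, matplotlib 3.10.9, pandas 2.3.3 and numpy 2.4.6 under python 3.11.15.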

Additional observations from a re-analysis of the deposited data

Results flagged for a closer look

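A total of 4 changes between stages ran one way in a clone group and the other way in IV-D embryos, on the log2(FPKM + 1) scale. None of these differences between groups was tested, because each condition had 1 library. From the 4-cell to the 8-cell stage TYR changed by -1.07 in NT-D and by 1.04 in IV-D embryos, and the IV-D value was 0.65 after median-ratio scaling. ASZ1 changed over the same step by -1.89 in NT-D clones, by -1.14 in NT-LW clones and by 2.25 in IV-D embryos, where the clones had 0 and 4 fragments at its end. From the morula to TE NAA11 changed by 1.57 in NT-LW, from 0 to 24 fragments, and by -1.92 in IV-D embryos, from 547 to 95 fragments.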

How the results depend on the processing

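With 1 library per condition the counting intervals limit only the depth, and the spread between embryos is unknown from these libraries. The paper describes added replicates for some stages of NT-D and IV-D, which were not analysed here. No difference of the 4 genes changed direction among those called, and all clone against IV-D calls from the 8-cell stage on held under 3 alternatives. Of 84 comparisons of the 4 genes, 12 changed their call, all at earlier stages or between IV-D stages. With a pseudocount of 0.1 the 8-cell differences in NT-D were -6.81 for RNASE1, -9.05 for TYR, -8.70 for NAA11 and -7.91 for ASZ1, and in NT-LW -7.69 for TYR, -6.52 for NAA11 and -6.47 for ASZ1, and the IV-D rise of RNASE1 between 4-cell and 8-cell embryos was 11.01. After rescaling to a sum of 1000000 they were -6.72, -6.69, -6.34 and -5.56 in NT-D for RNASE1, TYR, NAA11 and ASZ1, -6.37, -5.70 and -5.21 in NT-LW for TYR, NAA11 and ASZ1, and 8.64 for that step of RNASE1. After median-ratio scaling TYR was at -5.38 in NT-D and -5.20 in NT-LW and ASZ1 at -4.27 in NT-D, and the IV-D steps were 0.65 for TYR, 0.43 for NAA11 and 1.88 for ASZ1. The median gene of the step from the 4-cell to the 8-cell stage moved from 0.25 to -0.10 under that scaling. Genes lower in both clone groups from the 8-cell stage to TE were 11, but 19 with a pseudocount of 0.1 and 18 without the IT libraries, a setting added after the data were seen, as were the other settings of this count. No paired analysis was possible because each condition had 1 library, so that the groups compared share fewer than 2 replicate numbers.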

Other observations

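Some genes of the lists moved at later stages, and they were picked after their values were seen. KITLG, the ligand of the receptor KIT, was at 2.66 FPKM in IV-D, 37.4 in NT-D and 39.1 in NT-LW morulae, and at 1.01, 29.1 and 12.8 in IT, whereas 8-cell embryos had 16.8, 7.24 and 16.6. HENMT1, the methyltransferase that protects piRNA ends, had 3799 FPKM in IV-D IT, 519 in NT-D and 415 in NT-LW, after 3357, 2311 and 1625 in 8-cell embryos. RNASE12 was at 0 fragments in the 8-cell libraries of the 3 groups and at 2.07, 5.85 and 17.2 FPKM in morulae of IV-D, NT-D and NT-LW. DPPA5 was at 49.6 FPKM in IV-D IT and at 281 and 359 in clone IT.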
